A study of Mus musculus with 6 samples.

Results

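The genes described here are the MYC, MAX and MXD network: Myc, Mycn, Mycl, Max, Mxd1, Mxd4, Mxi1, Mnt, Mga and Mlx. The 10 genes were chosen by symbol as a known network, at a time when their values in this comparison had been seen, so that their changes are given as a description with no p-value. Of the 10, 9 had values among the 18182 genes of the series, and all 9 passed the filter on low counts. No row was matched to Mycn, which was not analysed here.

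The source was LLC, the Lewis lung carcinoma line of mouse, here tagged with red fluorescent protein (RFP). Wild type C57BL/6 mice received these cells under the skin either by themselves (LLC alone, 3 libraries) or mixed with bone marrow-derived mesenchymal stem cells (LLC with BMSCs, 3 libraries), and the RFP-positive cells were sorted from the primary tumours for RNA sequencing. All libraries thus share the line, the RFP tag and the host strain, and the comparison asks how the transcripts of the sorted cells differ when BMSCs are injected too. The labels do not say whether libraries of a group came from separate mice or pooled tumours, so that p-values measure only the spread between these libraries.

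MYC is a transcription factor that binds DNA as a dimer with MAX, mostly at E-boxes, the letters CACGTG, and raises transcription of genes for ribosomes, nucleotides, amino acid uptake and the cell cycle. MXD1, MXI1, MXD4, MNT and MGA compete for MAX and bind the same sites, and the MXD proteins and MNT bring in the SIN3 corepressor with its histone deacetylases. MLX is a related partner that dimerizes with MNT and some MXD proteins and with the glucose-responsive factors encoded by Mlxip and Mlxipl. High Myc is typical of growing tumour cells, and several Mxd genes, though not Mxd3, are typical of cells that differentiate or stop dividing.

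Because the network acts through the E-box, the promoter windows of its own genes were read for it. The windows are those of RefSeq on GRCm38.p6, from 250 bases before a gene's start to 50 after it, and 9 of the 10 members had at least 1, with 11 windows in all. The letters CACGTG, which read the same on both strands, were found in windows of 4 members, Max, Mxd4, Mnt and Mlx, and in 7.15% of all 32851 windows. The 30 bases around the E-box are shown for the 3 members whose match lay wholly before the start, with the E-box in capitals.
Mxd4, chr5:34187912-34187941, minus strand, 219 bases before the start: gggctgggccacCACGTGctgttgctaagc
Mnt, chr11:74830789-74830818, plus strand, 123 bases before the start: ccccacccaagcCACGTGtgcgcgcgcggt
Mlx, chr11:101087238-101087267, plus strand, 40 bases before the start: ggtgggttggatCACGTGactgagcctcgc
In Max the match lay across the start, beginning before it and ending after it. A match of letters is a description of the window and not a binding site, and binding was not measured.

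Mxi1 had more than 1 start, and its transcripts are described separately further on, so the 30 bases before each of its 2 main starts are shown. They lie 18907 bases apart on the plus strand.
Mxi1, start of NM_001008542, chr19:53310476-53310505: gtcctgtaggttcattcaatctcccataca
Mxi1, start of NM_010847, chr19:53329383-53329412: atttcccagggggcagcggaaggggcgggc
The 2 forms that begin there are compared after the levels.

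Levels are FPKM, which corrects fragment counts for a transcript's length and the depth of its library and can be set side by side between genes. Changes are log2 fold changes of LLC with BMSCs over LLC alone fitted by edgeR to estimated counts, with a standard error (SE). Library totals ran from 33476347 to 46189113 estimated counts, which puts 3 counts at 0.065 to 0.0896 CPM, counts scaled to a common library total. LLC alone replicate 3 stood apart by transcript length: relative to the mean of all libraries its median log2 deviation was 0.31 over the fifth of the genes that are shortest and -0.36 over the fifth that are longest. The libraries with BMSCs leaned the other way, at -0.19, -0.09 and -0.11 over the shortest genes and 0.18, 0.10 and 0.13 over the longest. LLC alone replicates 1 and 2 were at 0.06 and 0.04 over the shortest and at -0.02 and -0.003 over the longest. The trend thus also differs between the groups, and leaving out LLC alone replicate 3 does not remove it. Values without LLC alone replicate 3, and with the trends over length and GC content removed, are therefore given where they matter. Of all 13353 genes tested, 62.9% had an adjusted p under 0.05 (edgeR's quasi-likelihood test with Benjamini-Hochberg adjustment), with 31.5% higher and 31.3% lower in LLC with BMSCs, and their median log2 fold change was 0.01. Since most genes pass, passing says little of any 1 gene and the sizes below carry more.

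Against that background, 4 of the 9 members were past the threshold, 2 higher (Mxi1 and Mxd1) and 2 lower (Myc and Mxd4), and the median log2 fold change of the 9 was -0.03. The FPKM ranges of the 2 groups did not overlap for 5 of the 9 (Myc, Mlx, Mxi1, Mxd1 and Mxd4), against 70.6% of all genes tested. The shares are set side by side only, since the members were chosen with this contrast in view. Among the members, Myc and Mxi1 had the largest differences.

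**Figure D1:**
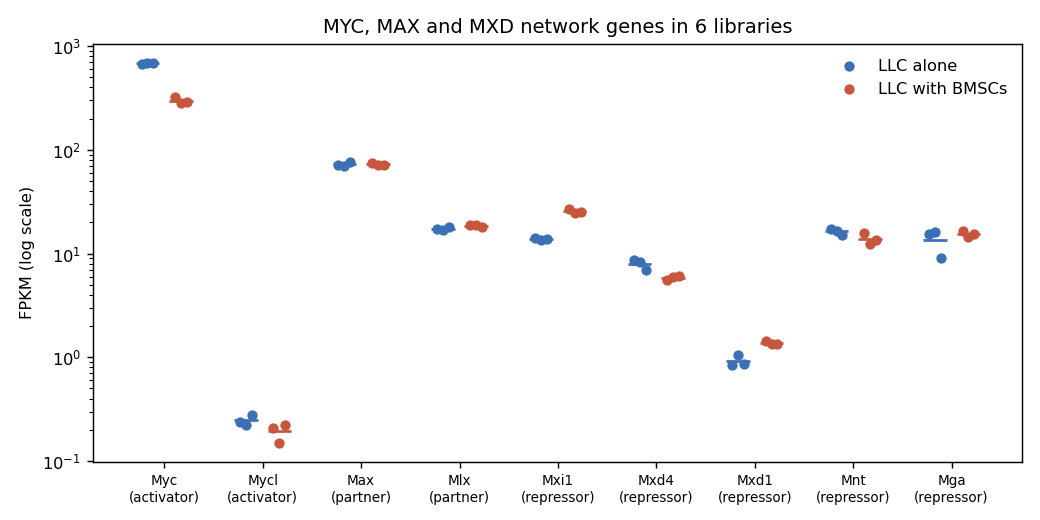
FPKM on a log scale of the 9 network genes in each of the 3 libraries of LLC alone and the 3 of LLC with BMSCs, with points for libraries and bars for group means. Myc is the highest member in every library and lies lower with BMSCs, Mxi1 lies higher, and the points of Max overlap.

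Myc, the activator with by far the highest level, was lower in every library with BMSCs. In replicate order, the FPKM values were 677, 686 and 687 for LLC alone and 321, 284 and 288 for LLC with BMSCs. The libraries of LLC alone were nearly equal, and the lowest of them lay more than 2-fold above the highest of LLC with BMSCs. The group means were 683 ± 5.35 and 298 ± 20.7 (SD, n = 3 each), a level 2.30-fold lower with BMSCs, and the fitted log2 fold change was -1.22 (SE 0.067). Over the 18 alternative settings it ran from -1.28 to -1.16, and it was -1.17 with the trends over length and GC content removed. By FPKM, Myc ranked between 115 and 130 among the genes of a library of LLC alone and between 200 and 232 with BMSCs. In sorted bulk RNA, fewer cells that express a gene and less of its RNA per cell cannot be told apart.

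Mycl, the activator first found in small cell lung cancer, was close to absent. Its FPKM was 0.24, 0.22 and 0.28 in LLC alone and 0.21, 0.15 and 0.22 in LLC with BMSCs, from 22 to 43 estimated counts a library. The ranges overlapped at the edge, and the log2 fold change of -0.39 (SE 0.21) was not past the threshold in this fit or in any of the 16 alternatives that gave Mycl a value.

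Max, the obligate partner of MYC and a partner of its antagonists, differed by less than the spread between libraries. Its FPKM was 71.4, 70.0 and 76.8 in LLC alone and 75.1, 71.05 and 71.2 in LLC with BMSCs, with group means of 72.8 ± 3.59 and 72.4 ± 2.28 (SD, n = 3). The 2 groups overlapped, and the log2 fold change was -0.03 (SE 0.063), or 0.10 with the trends over length and GC content removed, the 1 alternative of 18 in which Max was past the threshold. Mlx, the partner shared with the glucose-responsive factors, was 17.2, 16.8 and 18.05 FPKM in LLC alone and 18.9, 18.7 and 18.09 in LLC with BMSCs. The groups just failed to overlap, by the last value of each, and the log2 fold change of 0.09 (SE 0.056) was not past the threshold. It was 0.25 with both trends removed, and it passed under 3 of the 18 alternatives.

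Among the repressors, Mxi1 (also known as Mxd2) showed the largest difference. Its FPKM was 14.1, 13.45 and 13.7 in LLC alone and 26.7, 24.6 and 25.1 in LLC with BMSCs, so that every library with BMSCs lay well above every library without. The means were 13.8 ± 0.339 and 25.5 ± 1.11 (SD, n = 3), 1.85-fold higher, with a log2 fold change of 0.88 (SE 0.061) that ran from 0.69 to 0.91 over the alternatives. Mxd1, the founding MXD gene, had a low level of 0.84, 1.05 and 0.86 FPKM in LLC alone and of 1.42, 1.33 and 1.34 in LLC with BMSCs. The groups did not overlap, and the log2 fold change was 0.56 (SE 0.11), past the threshold in all 18 alternatives, as those of Myc and Mxi1 were.

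Mxd4 went the other way from Mxi1 and Mxd1. It was 8.69, 8.22 and 6.94 FPKM in LLC alone and 5.55, 5.88 and 6.06 in LLC with BMSCs. The groups did not overlap, with LLC alone replicate 3 the nearest to the other group, and the log2 fold change was -0.47 (SE 0.10). It was past the threshold in 16 of the 18 alternatives. The exceptions were the fits with the length trend removed and with both trends removed, each at -0.22, while it was -0.55 without LLC alone replicate 3.

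Mnt, the MXD-related repressor found in most cells, was 17.3, 16.5 and 15.25 FPKM in LLC alone and 15.8, 12.35 and 13.4 in LLC with BMSCs. LLC with BMSCs replicate 1 lay within the range of LLC alone, and the log2 fold change of -0.26 (SE 0.10) was not past the threshold, although it was under 7 of the 18 alternatives and was -0.44 with both trends removed. Mga, a very large protein that carries a T-box besides its MAX-binding part, was 15.6, 16.2 and 9.11 FPKM in LLC alone and 16.55, 14.5 and 15.35 in LLC with BMSCs. The low value belonged to LLC alone replicate 3, the library that was short of long transcripts, and Mga's transcripts are 13304 to 14512 bases long. The log2 fold change was 0.16 (SE 0.20), changed sign to -0.06 without that library, and was not past the threshold in either. With the length trend removed it was -0.23, and with both trends removed -0.24, and it was past the threshold as lower in these 2 of the 18 alternatives. Its estimated counts were fractional in all 6 libraries, so that some of its reads were shared with other features.

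**Figure D2:**
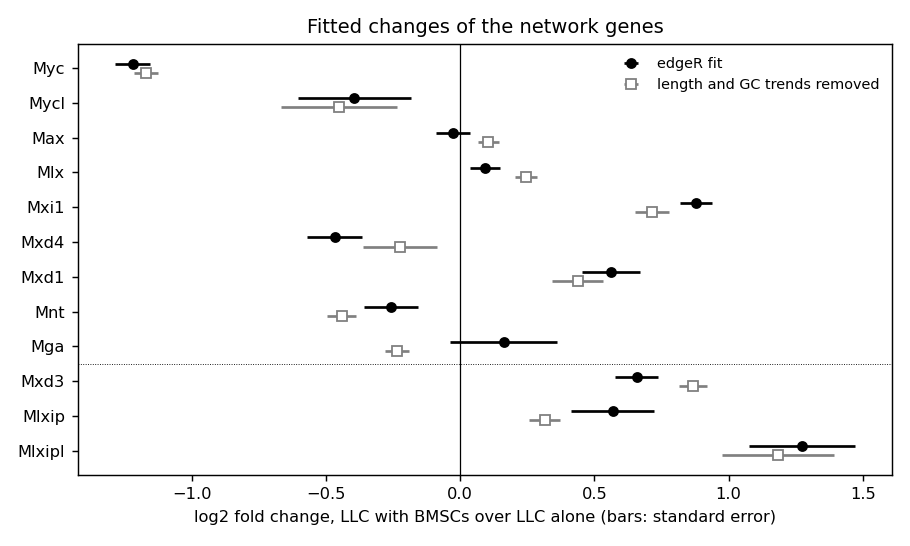
Fitted log2 fold changes of the 9 members and, under the dotted line, of Mxd3, Mlxip and Mlxipl, with LLC with BMSCs over LLC alone on the x axis and bars of 1 standard error. Filled points are the edgeR fit and open squares the fit with length and GC trends removed, and Myc at -1.22 and Mxi1 at 0.88 are far from 0 in both while Mga and Max change side.

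The order of the levels changed with the group. In LLC alone it was Myc, Max, Mlx, Mnt, Mxi1, Mga, Mxd4, Mxd1 and Mycl, and the ranges of Mlx and Mnt overlapped, as did those of Mxi1 and Mga. In LLC with BMSCs it was Myc, Max, Mxi1, Mlx, Mga, Mnt, Mxd4, Mxd1 and Mycl, and the only neighbours with overlapping ranges were Mga and Mnt. Mxi1 stood at the third place with BMSCs. In LLC alone it was at the fifth place by the means, but Mga lay above it in replicates 1 and 2 and under it only in replicate 3, the library short of long transcripts. The first 2 and the last 3 places stayed as they were.

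Ratios between members within a library do not depend on that library's total. Myc over Max was 9.48, 9.80 and 8.94 in LLC alone and 4.28, 3.99 and 4.04 in LLC with BMSCs, with means of 9.41 ± 0.435 and 4.11 ± 0.155 (SD, n = 3). Myc over Mxi1 was 48.0, 51.0 and 50.1 against 12.04, 11.55 and 11.46, the widest gap of the ratios computed. Myc over the summed FPKM of Mxd1, Mxd4, Mxi1 and Mnt was 16.5, 17.5 and 18.7 against 6.49, 6.43 and 6.27. Myc RNA stayed above that of its partner and of the 4 repressors together in every library. The ratios are of RNA, and protein was not measured.

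The make-up of the repressors also differed. The summed FPKM of Mxd1, Mxd4, Mxi1 and Mnt was 39.0 ± 2.13 in LLC alone and 46.5 ± 2.75 in LLC with BMSCs (SD, n = 3). Mxi1 held 34.3% to 37.3% of that sum in LLC alone and 53.9% to 55.7% with BMSCs. Mnt held 41.5% to 42.3% and 28.0% to 32.0% in turn, so that Mnt led these 4 in every library without BMSCs and Mxi1 in every library with them. Outside the sum were Mga, with means of 13.6 and 15.5 FPKM in LLC alone and LLC with BMSCs, and Mxd3, with 11.8 and 18.9. The shares would be smaller with them in it.

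**Figure D3:**
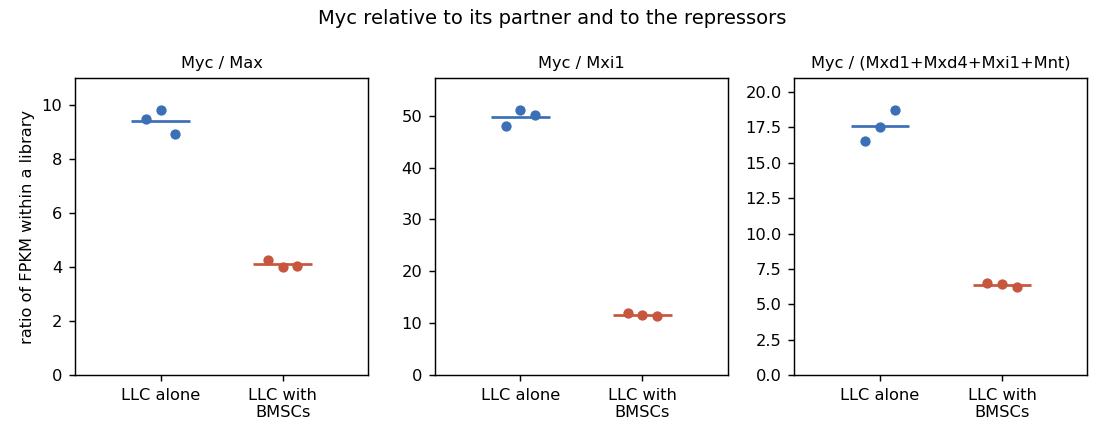
Ratio of Myc FPKM to that of Max (left), Mxi1 (middle) and the sum of Mxd1, Mxd4, Mxi1 and Mnt (right) in each library, with bars for group means. The 3 libraries of LLC with BMSCs lie under the 3 of LLC alone in every panel, and the means of Myc over Mxi1 are 49.7 and 11.7.

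Transcript values showed which form of Mxi1 carried its difference. NM_001008542, which starts at the upstream site printed above, was 6.47, 5.17 and 5.70 FPKM in LLC alone and 17.0, 15.7 and 15.7 in LLC with BMSCs, 2.80-fold higher by the means. NM_010847, from the downstream start, was 7.64, 8.27 and 7.76 against 9.46, 8.82 and 9.04, 1.15-fold higher. The groups did not overlap for either form, but the upstream form made 38.5% to 45.9% of the gene in LLC alone and 62.6% to 64.1% with BMSCs. The third listed form, NM_001008543, stayed at or under 0.37 FPKM. Transcript estimates divide shared reads among forms by a model, and no test was run on them.

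The forms of the other members were described in the same way. For Max, NM_001146176 was 62.4 ± 3.04 and 64.45 ± 2.495 FPKM and NM_008558 was 10.3 ± 0.962 and 7.99 ± 0.384 (SD, n = 3), and of these the minor form separated the groups. The 4 transcripts of Myc formed 2 pairs with identical values in every library, which the deposited values do not separate. All 4 were lower with BMSCs. Each transcript of 1 pair was at 265 ± 2.90 against 114 ± 10.6 FPKM, and each of the other pair at 76.7 ± 2.26 against 34.3 ± 0.574. The 3 forms of Mlx varied within a group, with NM_001159385 between 5.69 and 9.48 FPKM in LLC with BMSCs, and NM_011550 separated the groups at 2.88 to 3.09 against 3.22 to 5.67 FPKM. Mxd1, Mxd4 and Mnt had 1 transcript each.

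**Figure D4:**
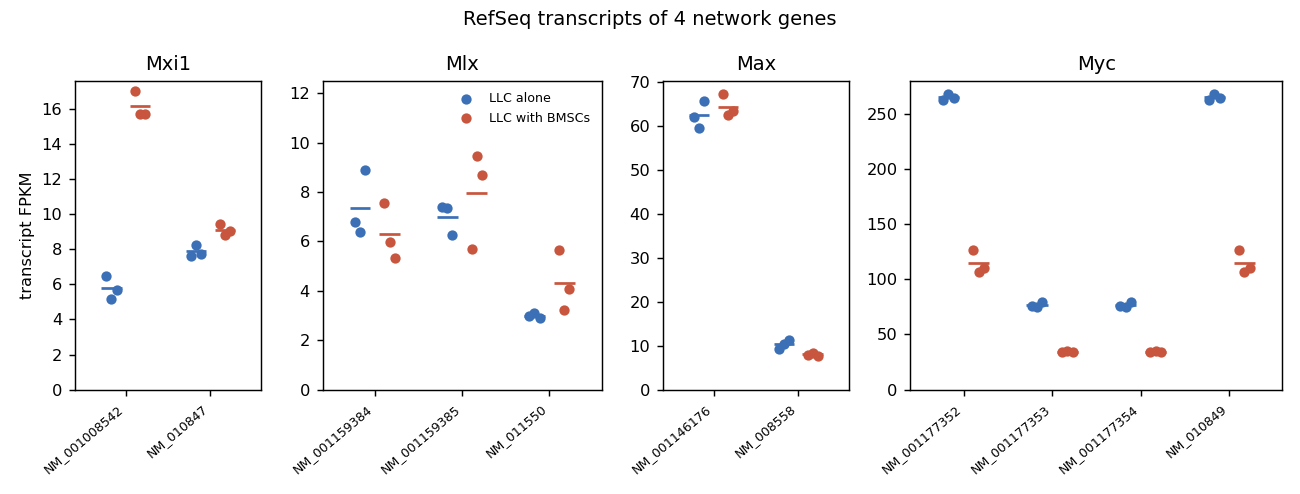
FPKM of each RefSeq transcript that reached 1 FPKM in some library, for Mxi1, Mlx, Max and Myc, with points for libraries, bars for group means and a separate axis for each gene. The means of NM_001008542 of Mxi1 are 5.78 and 16.2 FPKM in LLC alone and LLC with BMSCs, and those of NM_010847 are 7.89 and 9.11.

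The genes around the members were read from 10 lists written from general knowledge, at a time when earlier results of these data were known. The lists held 170 genes in all, of which 168 were tested with every other gene. In the edgeR fit 47 were higher and 63 lower in LLC with BMSCs and 58 did not pass, with a median log2 fold change of -0.03 beside the 0.01 of all genes tested. The network genes outside the members were all higher. Mxd3, the MXD gene of dividing cells, rose from 11.8 ± 0.982 to 18.9 ± 0.680 FPKM (SD, n = 3), a log2 fold change of 0.66 (SE 0.079, adjusted p = 0.000249 by edgeR). Mlxip, a glucose-responsive partner of MLX, rose by 0.57 on the log2 scale (adjusted p = 0.0129 by edgeR), or by 0.32 with length and GC trends removed, and Mlxipl, the carbohydrate response factor of liver, by 1.27 (adjusted p = 0.000908), from 0.163 to only 0.403 FPKM. Mxd3 was thus higher, as Mxi1 and Mxd1 were, where Mxd4 was lower.

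The SIN3-HDAC corepressor, through which MXD proteins and MNT repress, held 8 genes higher, 5 lower and 4 that did not pass, of 17, with a median of 0.15, or 0.25 with length and GC trends removed. Its scaffolds went opposite ways. Sin3a rose from 15.1 ± 2.07 to 26.9 ± 0.453 FPKM (SD, n = 3, log2 fold change 0.80, adjusted p = 0.00028 by edgeR). Sin3b fell from 125 ± 9.42 to 95.2 ± 7.59 (log2 fold change -0.34, adjusted p = 0.00501), but with length and GC trends removed its change was -0.08 with an adjusted p of 0.211. Of the deacetylases, Hdac2 fell by 0.30 on the log2 scale (adjusted p = 0.00478 by edgeR), and Hdac1 was at -0.10 (adjusted p = 0.181), or at 0.04 with both trends removed. The chromatin readers Ing1 and Ing2 had the largest rises of the list at mean levels of at least 1 FPKM, by 0.86 and 0.90, and Brms1l fell by 0.39 on the log2 scale.

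The lists for the cofactors of MYC and for the breakdown of its protein were mixed. Of 16 cofactors 6 were higher, 2 lower and 8 did not pass (median 0.18, or 0.02 with length and GC trends removed). Smarcb1, a core subunit of the SWI/SNF remodeller, fell by 0.63 on the log2 scale and Kat5, a histone acetyltransferase, by 0.38, while Paf1 of the elongation complex rose by 0.38. Ep400, a chromatin remodeller, rose by 0.58, or by 0.36 without LLC alone replicate 3 and 0.24 with length and GC trends removed. Zbtb17, which encodes MIZ1, the partner through which MYC represses, was at -0.07 on that scale (adjusted p = 0.323 by edgeR). Of 18 genes of MYC protein turnover 7 were higher, 5 lower and 6 did not pass (median 0.07), and 7 were higher and 8 lower (median -0.01) with both trends removed. Fbxw7, the ubiquitin ligase that recognizes phosphorylated MYC, rose by 0.40 (adjusted p = 0.00208 by edgeR), or by 0.26 with both trends removed. Aurka, a kinase that stabilizes N-MYC, rose by 0.35 (adjusted p = 0.00205 by edgeR). Skp2, another ligase for MYC, fell by 0.28 on the log2 scale (adjusted p = 0.00464 by edgeR). Cip2a, which protects MYC from a phosphatase, and Fbxl14 rose by 0.60 and 0.53, and Stub1 fell by 0.52 on the log2 scale.

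Of 11 genes known to act on Myc RNA or its transcription, 1 was higher, 3 lower and 7 did not pass (median -0.02), and 0 were higher and 6 lower (median -0.10) with both trends removed. Cnbp, which binds a control element upstream of Myc, fell from 453 ± 46.1 to 219 ± 18.3 FPKM (SD, n = 3, log2 fold change -1.07, adjusted p = 5.05e-05 by edgeR). Pvt1, the long noncoding RNA next to Myc, was 31.3 ± 1.10 and 29.4 ± 1.03 FPKM, with a log2 fold change of -0.06 (adjusted p = 0.388 by edgeR) against the -1.22 of Myc. With length and GC trends removed the change of Pvt1 was -0.44 (adjusted p = 0.0303), and its counts were partly fractional. Zfp36, which destabilizes short-lived mRNAs, fell by 0.32 on the log2 scale. It was at -0.18 both with the length trend removed and with both trends removed (adjusted p = 0.0596 and 0.0436 by edgeR). Elavl1, which encodes the RNA-binding protein HuR, rose by 0.28, but its change was 0.02 with both trends removed.

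The PRC1.6 complex, a Polycomb complex built on MGA and MAX, held 2 genes lower, 0 higher and 9 that did not pass, of 11 (median -0.01). The genes that fell were Rnf2, its ubiquitin ligase, by 0.50 on the log2 scale and E2f6 by 0.41 (adjusted p = 0.000168 and 0.000585 by edgeR). L3mbtl2 and Pcgf6, which are particular to this form of the complex, had log2 fold changes of -0.09 and -0.01 with adjusted p of 0.303 and 0.938 by edgeR. With length and GC trends removed 3 of the 11 were higher and 4 lower, and L3mbtl2 was at -0.15 (adjusted p = 0.0152 by edgeR) and Pcgf6 at 0.07 (adjusted p = 0.138).

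Targets of MLX with its glucose-responsive partners went both ways. Txnip, which blocks glucose uptake and binds thioredoxin, fell from 239 ± 2.06 to 46.4 ± 1.06 FPKM (SD, n = 3), a log2 fold change of -2.39 (SE 0.054, adjusted p = 1.02e-07 by edgeR). Its relative Arrdc4 fell from 6.67 ± 1.19 to 2.22 ± 0.110 FPKM (log2 fold change -1.81, adjusted p = 2.47e-06). The lipogenic targets Acaca and Fasn went up instead, by 0.48 and 0.58 (adjusted p = 0.0482 and 0.0227 by edgeR), or by 0.19 and 0.20 with both trends removed. Of the 5 genes tested 2 were higher and 3 lower, while Mlx itself was not past the threshold and Mlxip and Mlxipl rose.

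The list of MYC-activated targets of ribosome making and the cell cycle, 59 genes of the hallmark type, held 33 lower, 8 higher and 18 that did not pass, with a median of -0.25, or -0.15 with length and GC trends removed. That is 33 of 59 where 31.3% of all genes were lower. The count was 35 lower and 14 higher with length and GC trends removed, and 35 and 13 without LLC alone replicate 3. Over all genes 4183 were lower and 4210 higher in the main fit, 4666 and 4873 with both trends removed, and 4539 and 4736 without that library. These shares are set side by side only, since the lists were chosen with earlier results of these data known. Prmt3, which methylates a ribosomal protein, fell from 25.9 ± 0.945 to 12.1 ± 0.690 FPKM (log2 fold change -1.12, adjusted p = 5.91e-06 by edgeR), and the phosphatase gene Dusp2 fell by 0.99 on the log2 scale. Cdk4, a kinase of early cell cycle, fell from 458 ± 36.6 to 314 ± 9.60 FPKM (log2 fold change -0.57, adjusted p = 0.000318 by edgeR, or -0.34 with both trends removed). For Npm1, an abundant nucleolar gene, the change was 0.15 on the log2 scale (adjusted p = 0.0538 by edgeR), but it was 0.37 (adjusted p = 4e-05) with length and GC trends removed and 0.20 (adjusted p = 0.00208) without LLC alone replicate 3. Map3k6 and Supv3l1 rose by 1.05 and 0.47. Endog, among the 8 higher in the main fit, had 2.58, 1.29 and 5.25 estimated counts in LLC alone. It passed the filter only through the libraries with BMSCs, so that its being called higher was fixed by the filter.

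Textbook single targets went both ways, with 7 of 18 lower, 5 higher and 6 that did not pass (median -0.13), beside 31.3% lower and 31.5% higher of all genes tested. The count was 10 lower and 6 higher with length and GC trends removed, and 8 and 7 without LLC alone replicate 3. Nme1, a nucleotide kinase, and Slc7a5, a transporter of large amino acids, fell from 216 ± 29.7 to 122 ± 18.1 and from 201 ± 11.2 to 118 ± 4.27 FPKM, by 0.85 and 0.79 on the log2 scale (adjusted p = 0.000868 and 3.33e-05 by edgeR). Odc1, the first enzyme of polyamine synthesis, fell by 0.17 on the log2 scale (adjusted p = 0.0277 by edgeR). Others rose while Myc was lower, among them Ldha, which makes lactate, from 757 ± 45.5 to 1178.6 ± 68.5 FPKM (log2 fold change 0.62, adjusted p = 0.000174 by edgeR). Cad, of pyrimidine synthesis, rose by 0.54 (adjusted p = 0.0157 by edgeR), or by 0.26 with length and GC trends removed. Ncl, which encodes nucleolin, rose by 0.16 (adjusted p = 0.0332 by edgeR), but its change was -0.16 with the length trend removed.

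Of genes that MYC is known to repress, 7 of the 12 tested were higher, 3 lower and 2 did not pass (median 0.37, also with Gas1, at 0 counts in LLC alone, set at its bound). Over all genes tested 31.5% were higher and 31.3% lower, and these shares are set side by side only. Gas1, among the 7, passed the filter only through the libraries with BMSCs, so that its being called higher was fixed by the filter. Pdgfrb, also among the 7, is in the list of BMSC markers too. Cdkn1a, which encodes the cell cycle inhibitor p21, rose from 14.0 ± 0.871 to 36.4 ± 1.66 FPKM (log2 fold change 1.35, adjusted p = 3.95e-06 by edgeR), and Thbs1, a secreted inhibitor of vessel growth, rose by 1.97 (adjusted p = 1.83e-05). Gadd45a, a growth arrest gene, went sharply the other way, from 258 ± 35.01 to 40.5 ± 1.32 FPKM (log2 fold change -2.69, adjusted p = 9.37e-07 by edgeR). Cdkn1b, which encodes the inhibitor p27, fell by 0.57 on the log2 scale (adjusted p = 0.000129 by edgeR). Cdkn2b was listed at 0 counts in every library of LLC alone and at 6, 6 and 1 with BMSCs, and was not tested.

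**Figure D5:**
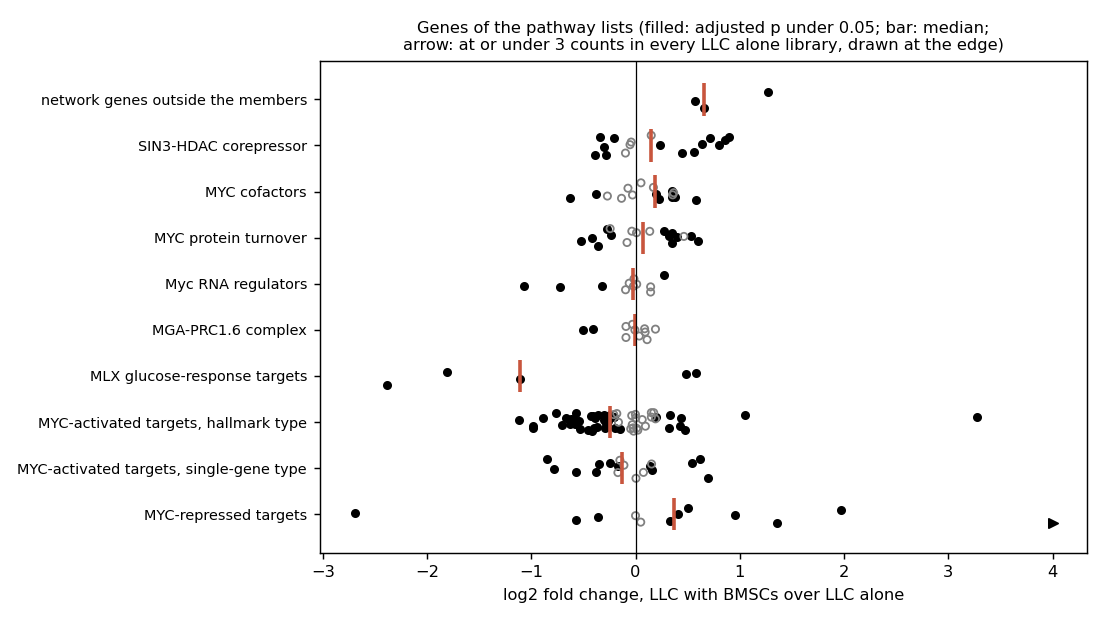
Fitted log2 fold change, LLC with BMSCs over LLC alone, of each tested gene in the 10 lists, with filled points for an adjusted p under 0.05, open points for the rest and bars for list medians. MYC-activated targets of the hallmark type have a median of -0.25 (-0.15 with length and GC trends removed) and MYC-repressed targets of 0.37, and the arrow is Gas1, at least 4.46-fold higher against a floor of 3 counts per library, while the point at 3.27 is Endog, whose mean stays under 1 FPKM (both named after their values were seen).

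Markers of some other cells also differed between the 2 groups, the same contrast that was read for every gene above. The summed level of the 12 BMSC markers was 373 to 438 CPM in LLC alone and 858 to 899.7 CPM with BMSCs, and 10 of the 10 that were tested rose. Among them Col1a1, at 2, 4 and 4 estimated counts in LLC alone, passed the filter only through the libraries with BMSCs. A gene that passes in that way could only be called higher. Thy1 and Cxcl12 stayed at or under 0.10 FPKM in all libraries, while LLC alone already had 36.8 to 43.6 FPKM of Col3a1. The 10 macrophage markers summed to 21.2 to 25.2 against 29.6 to 31.4 CPM, with 4 higher and 1 lower of 6 tested, and C1qa, C1qb and C1qc stayed at or under 0.07 FPKM. Adgre1, Itgam and Mrc1, among the 4 higher, also passed the filter only through the libraries with BMSCs. In LLC alone Adgre1 was at 0 estimated counts throughout, Itgam at 0, 0 and 5 and Mrc1 at 6, 9 and 7. The 9 neutrophil markers with values summed to 0.469 to 0.789 CPM in LLC alone and 21.2 to 24.0 CPM with BMSCs, and 7 of the 7 tested rose, while Ly6g stayed at or under 0.11 FPKM. Of these 7 only Cxcr2, at 0.10 to 0.18 FPKM, had more than 3 estimated counts in a library of LLC alone. The rest passed the filter only through the libraries with BMSCs, so that their being called higher was fixed by the filter. The 7 lymphocyte markers with values summed to 0.299 to 0.368 against 0.250 to 0.360 CPM with 0 tested, and the 6 endothelial markers to 1.06 to 1.28 against 1.32 to 1.77 CPM, with 0 of 2 tested past the threshold. The part of other cells in the values of the network genes was not tested.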

How the data were processed

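RNA was sequenced from sorted LLC cells in 6 libraries, 3 a group, with groups taken from the labels. The authors deposited estimated counts and FPKM values per gene and per transcript for each library. The labels name HISAT, StringTie, Cufflinks, GATK and the build mm8, without versions. Reads shared between genes are divided among them in such counts. The methods name the BGISEQ-500, while the labels name Illumina protocols.

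After rounding, the estimated counts were tested with edgeR 4.0.16 in R 4.3.3 (TMM, default filter on low counts, quasi-likelihood test, Benjamini-Hochberg adjustment over all genes tested, threshold 0.05). An exact permutation test of 3 against 3 gives no two-sided p below 0.1. In simulated libraries where 200 of 13163 genes were moved by 1 on the log2 scale, 169 were recovered with 14 false calls. With a length trend planted over 13164 genes, 102 of the 200 were recovered with 0 false calls, and 171 with 17 once that trend was removed. These simulations moved far fewer genes than the 62.9% past the threshold here. The planted trend lay mostly within LLC alone, while in the data it also differed between the groups. The counts of recovered and false calls therefore do not carry over to this contrast. The floor of 3 counts covers counting error only. The alternatives were DESeq2 1.42.0, limma 3.58.1 on log2(FPKM + 1) and log2(FPKM + 0.1), other scalings and filters, the replicate block, close replicates summed, trends over length and, added later, GC content removed by lowess, and each library left out. Replicate numbers did not pair the libraries.

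The members and the lists were chosen with earlier results of these data known. Named pathway genes are fixed regulators and targets, and in each list the 2 largest rises and 2 largest falls past the threshold with a mean of at least 1 FPKM in 1 group, of which a few are left out of the text. 1 list gene, Cip2a, was matched by its NCBI identifier under an older symbol. Promoter sequences are from RefSeq on GRCm38.p6, and no gene coordinates of the deposited files were used. A table of the whole series repeated the single libraries and was not used.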

Additional observations from a re-analysis of the deposited data

How the results depend on the processing

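Myc, Mxi1 and Mxd1 kept their direction and stayed past the threshold in the 18 alternatives run. With length and GC trends removed, the members past the threshold and higher with BMSCs numbered 4 in place of 2, and the log2 fold change of Max was 0.10 in place of -0.03. Max was at 0.085 with the length trend removed, and at -0.058 to 0.020 with 1 library left out, above 0 only without LLC alone replicate 3. Mga was at -0.23 with the length trend removed and at -0.24 with length and GC trends removed, and at -0.057 without LLC alone replicate 3 to 0.31 without LLC alone replicate 2. Ncl was at -0.16 under both, with adjusted p of 0.179 and 0.171 by edgeR. Hdac1 was at 0.017 and 0.038 under the same fits in place of -0.10. Pcgf6, close to 0 throughout, was at 0.015 by library size without TMM, 0.015 by limma on log2(FPKM + 1) with and without the filter, 0.016 by limma on log2(FPKM + 0.1), 0.078 with the length trend removed, 0.070 with both removed and -0.042 to 0.046 with 1 library left out. The cause was not tested. Over all genes 3364 to 4873 were higher and 3301 to 4666 lower across the alternatives, both lowest with close replicates summed. Leaving out 1 library gave 3617 to 4736 higher and 3581 to 4539 lower. The values of 51 named pathway genes under the alternatives stayed on the same side of the threshold and of 0 in 852 cases, lost the threshold in 43, gained it in 9 and changed sign in 12, which are those of Ncl, Hdac1 and Pcgf6.

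With the replicate block, 4161 genes were higher and 4058 lower, and 2 members were higher and 3 lower. Deviations from the group means of libraries with the same number correlated at 0.076, -0.106 and 0.057, so the numbers were not taken to pair the libraries. Depth limits Mycl most, with at most 43 estimated counts in a library.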
